A study of Arabidopsis thaliana with 42 samples.

Results

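Shoots of the Arabidopsis thaliana double mutant bzip19 bzip23 given excess zinc were compared with shoots of the same mutant given normal zinc. The comparison rests on 6 of the 42 ATH1 arrays of the series, chosen by title: 3 of mutant shoots at excess zinc (25 µM ZnSO4) and 3 of mutant shoots at normal zinc (2 µM ZnSO4). Both groups carried T-DNA insertions in bZIP19 and bZIP23 in the Columbia (Col-0) ecotype, were 4 weeks old, and had grown in hydroponics on a modified Hoagland solution at 2 µM zinc for 3 weeks before a final week at 25 µM or 2 µM. Further groups of 3 arrays each gave the context: mutant shoots at low zinc (0.05 µM), and Columbia wild type shoots at excess, normal and low zinc. Mutant roots at excess and at normal zinc were represented by 4 arrays each. Each sample was a pool of 6 plants from 2 containers, the mutant was 1 line, and no label states that the replicates were separate cultures. The p-values therefore cover no more than the spread among these arrays, which may be technical.

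bZIP19 and bZIP23 are basic leucine zipper transcription factors that switch on zinc uptake genes, such as those of the ZIP transporter family, when zinc is scarce. Zinc in excess is toxic to leaves, and it competes with iron and other metals for uptake and for transport to the shoot. Iron shortage in leaves is marked by IMA peptides, small mobile signals of iron demand, and by a group of basic helix-loop-helix (bHLH) factors, among them bHLH101 and the regulator PYE. These transcripts are therefore a common readout of how iron status shifts with zinc supply. In tissue samples such as these, a lower share of a cell type and less RNA per cell cannot be told apart.

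The transcript of bZIP19 (AT4G35040), which the insertion disrupts, read 4.98, 4.51 and 4.48 on the log2 scale in mutant shoots at excess zinc and 4.43, 4.56 and 4.58 at normal zinc. It averaged 8.70 in wild type shoots at excess zinc and 8.95 at normal zinc, so the transcript was low on all 6 arrays labelled mutant. In the platform table used here no probe set was paired with bZIP23 by name. That table names no gene for 8730 probe sets and several for 503, so a listed gene without a named probe set was not analysed here and may still be on the array. The 4 markers of photosynthetic tissue with a named probe set averaged 13.0 to 13.1 per array at excess zinc and 13.1 to 13.3 at normal zinc, and the 3 markers of root tissue with a named probe set averaged 5.92 to 6.08 at excess zinc and 5.97 to 6.45 at normal zinc, against 9.09 to 10.1 in mutant roots. Every excess array lay below every normal array in the photosynthetic markers, none of which was called (smallest adjusted p = 0.366), and the part of this in the results was not tested. None of the 9 listed flower markers had a named probe set. The excess-zinc shoots of both genotypes carried a single date in the names of their array files. The normal- and low-zinc shoots of both genotypes carried another. Excess zinc and array date therefore cannot be told apart in shoots, either within a genotype or with both genotypes together. The ratio of 3′ to 5′ actin control signal, a measure of RNA integrity, ran from 1.42 to 1.75 at excess zinc and from 1.41 to 1.83 at normal zinc on the log2 scale. Among the 18 shoot arrays whose spread was shared in the tests, wild type low-zinc replicate 1 stood apart with a ratio of 6.12, against 1.29 to 1.95 in the other 17.

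At excess zinc 729 of 22746 probe sets (3.20%) differed from normal zinc in mutant shoots at an adjusted p under 0.05 in the limma fit. Of these, 516 (2.27% of all) were higher and 213 (0.936%) were lower. The rises were mostly modest, with a median of 0.55 on the log2 scale and a largest of 2.74. The falls had a median size of 0.57 and a largest of 2.21. Only 79 of the 729 reached 2-fold, 51 of them higher and 28 lower. The excess and normal values did not overlap in 728 of the 729, against 25.9% of all probe sets. A gene could be named for 392 of the 729. With every array centred on its median, 614 were called and the share of higher ones was 52.9%, against 70.8% without centring. Of these 614, 537 were among the 729. The count also moved with single arrays. It was 235, 124 and 389 without excess replicate 1, 2 or 3, 396, 260 and 335 without normal replicate 1, 2 or 3, and 1223 without wild type low-zinc replicate 1, an array of neither group.

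**Figure D1:**
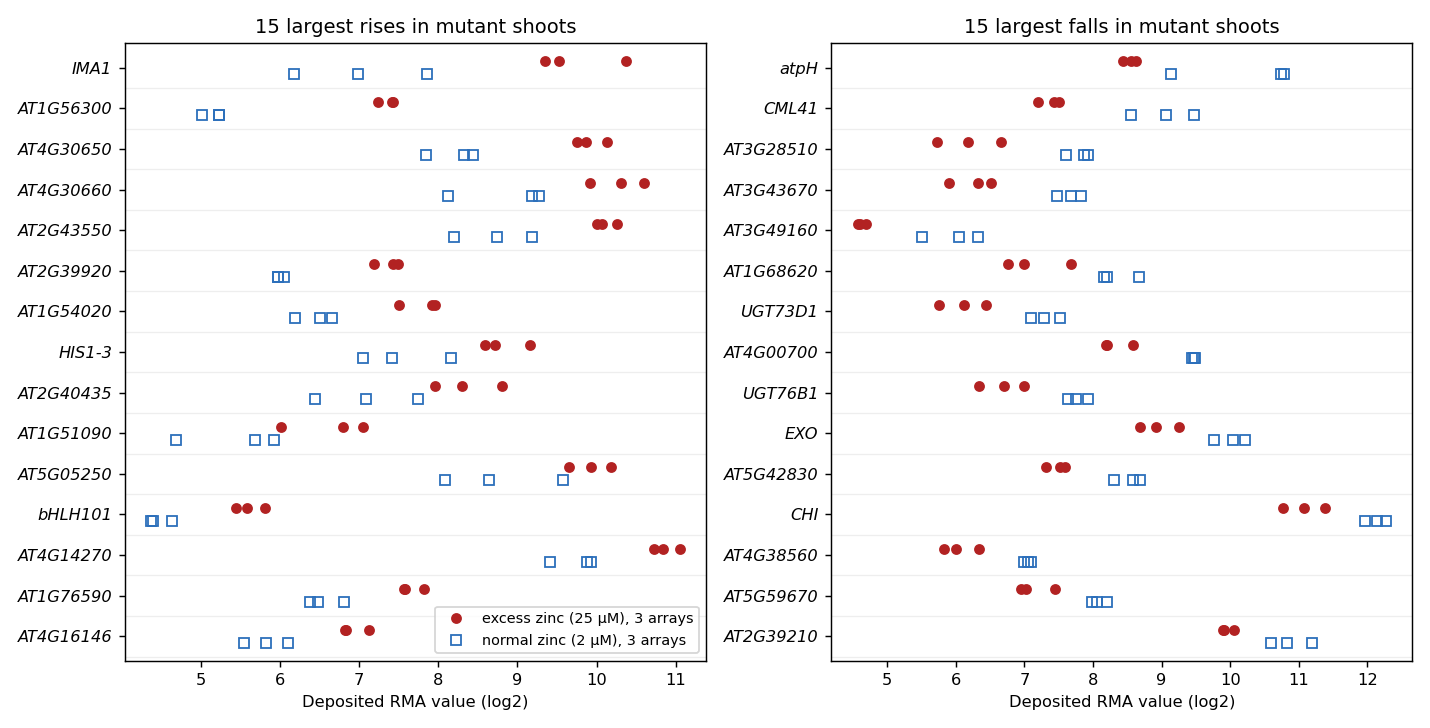
Deposited values (log2, horizontal axis) of the 15 named genes with the largest rise (left) and the 15 with the largest fall (right) in mutant shoots, with 1 filled circle per excess-zinc array and 1 open square per normal-zinc array. In no gene do the 3 circles overlap the 3 squares, a condition by which these genes were picked; IMA1 shows the widest gap in means and also a wide spread among its normal-zinc arrays, from 6.18 to 7.86.

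IMA1 (AT1G47400), which encodes an iron-responsive IMA peptide, had the largest rise of any probe set. It read 9.35, 10.37 and 9.52 at excess zinc, against 7.86, 6.18 and 6.99 at normal zinc. All 3 excess values lay above all 3 normal values, although the normal arrays spread over more than 1 log2 unit. The rise was 2.74 (SE 0.40, adjusted p = 0.00305), and it stayed called with any of the 18 shoot arrays left out, at 2.33 to 3.16.

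bHLH101 (AT5G04150), a transcription factor of the iron response, read 5.58, 5.81 and 5.45 at excess zinc, against 4.38, 4.64 and 4.41 at normal zinc. The groups lay about 1 log2 unit apart with little spread within either. Its rise was 1.14 on the log2 scale (SE 0.16) at an adjusted p of 0.00208, or at least 2.204-fold. That fold was taken as a lower bound because the normal-zinc mean of bHLH101 was below 4.92. This was the highest mean of bZIP19 among the mutant shoot groups, at low zinc. PYE (AT3G47640), a bHLH factor that restrains part of the iron response, read 7.90, 8.15 and 7.65 at excess zinc, against 7.20, 6.80 and 6.83 at normal zinc. It rose 1.94-fold (log2 difference 0.96, SE 0.14, adjusted p = 0.00307), with no overlap between the groups. Of the 26 listed iron deficiency genes 9 could be paired by name, with 10 probe sets, and 3 of these rose and none fell, where 2.27% of all probe sets rose and 0.936% fell. The median difference of the 10 was 0.17, against -0.01 over all probe sets. The gene lists were chosen with earlier results of these data known. The shares given for this list and for those below therefore describe the lists and test no enrichment.

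The other 6 genes of the iron list did not pass the test in shoots. S8H and F6'H1, enzymes of coumarin synthesis whose products help roots to mobilise iron, differed by -0.18 and -1.08 (adjusted p = 0.678 and 0.115). F6'H1 read 8.90, 8.03 and 9.21 at excess zinc, against 10.10, 9.55 and 9.73 at normal zinc, so its values were lower without overlap but widely spread. MTP8, a manganese and iron transporter, differed by -0.23, BGLU42 by 0.26, BTSL2 by -0.11, and BTSL1 by 0.23 and 0.10 on its 2 probe sets. A further gene outside the list, AT5G05250, which is known to respond to iron deficiency, read 9.65, 10.18 and 9.94 at excess zinc, against 9.57, 8.08 and 8.64 at normal zinc. Normal replicate 1 reached nearly the lowest excess value. Its rise of 1.16 (SE 0.29, adjusted p = 0.0401) was called in 7 of the 18 fits that left out 1 array, with values of 0.82 to 1.56 over them.

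Among the other large rises, AT1G56300, which encodes a chaperone with a DnaJ domain, had the lowest p of all probe sets. It read 7.42, 7.42 and 7.24 at excess zinc, against 5.02, 5.23 and 5.23 at normal zinc. The groups lay more than 2 log2 units apart, and the SD within them was 0.11 and 0.12. It rose 4.59-fold (log2 difference 2.198, SE 0.12, adjusted p = 3.37e-08).

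A pair of related genes, AT4G30650 and AT4G30660, which encode small membrane proteins of the low temperature and salt responsive family, rose as well. AT4G30650 read 9.75, 10.13 and 9.87 at excess zinc, against 8.44, 7.85 and 8.33 at normal zinc, a 3.28-fold rise (log2 difference 1.71, SE 0.24, adjusted p = 0.00226). AT4G30660 read 9.92, 10.60 and 10.31 at excess zinc, against 9.27, 8.13 and 9.18 at normal zinc, a 2.67-fold rise (log2 difference 1.42, SE 0.27, adjusted p = 0.0131). In both genes normal replicate 2 was the lowest of the 6 arrays.

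Several further genes with rises of 2-fold or more belong to diverse families. AT2G39920, of the acid phosphatase family, averaged 7.37 ± 0.16 at excess zinc and 6.00 ± 0.04 at normal zinc (SD, n = 3 each), and AT2G43550, which encodes a defensin-like protein, averaged 10.11 ± 0.13 at excess zinc and 8.71 ± 0.49 at normal zinc. AT1G54020, of the GDSL lipase family, rose by 1.35, and HIS1-3, a drought-inducible linker histone, by 1.28. AT1G51090, whose product has a heavy-metal-associated domain, averaged 6.62 ± 0.54 at excess zinc and 5.44 ± 0.65 at normal zinc, a rise of 1.19. AT2G40435 rose by 1.26, AT4G14270 by 1.13, AT1G76590 (a PLATZ zinc-finger protein) by 1.11 and AT4G16146 by 1.105. CCS (AT1G12520), the chaperone that delivers copper to superoxide dismutase, read 10.52, 9.89 and 10.23 at excess zinc, against 9.13, 9.05 and 9.42 at normal zinc, and rose 2.02-fold (adjusted p = 0.0244). BCAT4 (AT3G19710), which starts methionine chain elongation for glucosinolates, averaged 11.82 ± 0.15 at excess zinc and 10.81 ± 0.17 at normal zinc and rose 2.02-fold (adjusted p = 0.00876).

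Of the 15 largest rises, 8 kept their call with any 1 of the 18 shoot arrays left out: IMA1, AT1G56300, AT4G30650, AT2G39920, bHLH101, AT4G14270, AT1G76590 and AT4G16146. AT4G30660 and AT2G43550 lost it without excess replicate 2 (1.26, adjusted p = 0.0694, and 1.33, adjusted p = 0.0528). The remaining 5 lost it without several arrays: HIS1-3 held in 11 of the 18 fits (1.03 to 1.59), AT1G54020 in 12 (1.22 to 1.49), AT2G40435 in 13 (0.94 to 1.59), AT1G51090 in 8 (0.82 to 1.49) and AT5G05250 in 7. Leaving out excess replicate 2 ended 7 of the 15 calls, excess replicate 1 or normal replicates 2 or 3 ended 5 each, excess replicate 3 ended 4, and an array of neither group ended at most 3. CCS lost its call without excess replicates 1 or 3 or normal replicates 1 or 2 (0.86 to 1.17 over all 18 fits), and BCAT4 without excess replicate 2 (0.93, adjusted p = 0.0519).

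Of 13 listed genes of the response to cold and dehydration 4 could be paired by name, and 2 of these rose and none fell, where 2.27% of all probe sets rose and 0.936% fell. All 4 differences lay above 0, with a median of 0.85 against -0.01 over all probe sets. COR15A (AT2G42540), which encodes a chloroplast protein that protects membranes during freezing, read 9.71, 10.02 and 9.34 at excess zinc, against 9.01, 8.45 and 8.50 at normal zinc, and rose 2.05-fold (adjusted p = 0.0279). COR47, a dehydrin, rose 1.41-fold (adjusted p = 0.0214). COR15B differed by 0.94 (adjusted p = 0.0693) and the dehydrin LTI30 by 0.77 (adjusted p = 0.175). In all 4 genes normal replicate 2 was the lowest of its group, and without it the median difference was 0.54. COR15A was called in 14 and COR47 in 15 of the 18 fits that left out 1 array, both being lost without excess replicates 1 or 2 or normal replicate 2 and COR15A also without normal replicate 3, with values of 0.87 to 1.21 and of 0.38 to 0.60.

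All 8 genes of the ATG family with a named probe set, 7 of them ATG8 genes, which encode ubiquitin-like proteins of autophagosome membranes, lay above 0, and none passed the limma test. Their differences ran from 0.30 for ATG8E to 0.67 for ATG8B (adjusted p = 0.609 and 0.0807), with a median of 0.40. ATG8B read 8.14, 8.39 and 8.34 at excess zinc, against 7.90, 7.39 and 7.57 at normal zinc. Normal replicate 2 was the lowest of its group in 7 of the 8, and without it the median was 0.21. The same array was the lowest normal value in 55.4% of the 516 risen probe sets, against 34.6% of all probe sets. Whether it has a part in these rises was not tested beyond leaving it out.

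Genes of flavonoid synthesis and the plant defensins gave no call. CHIL, a helper of chalcone isomerase, read 10.13, 10.68 and 9.82 at excess zinc, against 9.16, 8.67 and 9.27 at normal zinc, a difference of 1.18 (adjusted p = 0.0527). DFR and UF3GT, which act later toward anthocyanins, differed by 0.76 and 0.59 (adjusted p = 0.242 and 0.408). Of the 8 defensins with a named probe set, PDF1.2a read 11.56, 12.35 and 12.87 at excess zinc, against 11.17, 9.61 and 11.03 at normal zinc, a difference of 1.66 with an SE of 0.73 (adjusted p = 0.213). PDF1.2b, on a probe set that Affymetrix marks as shared with other sequences, differed by 1.15 (adjusted p = 0.338) and PDF1.4 by -0.41 (adjusted p = 0.0648). The defensins' median was 0.09, and -0.08 without normal replicate 2.

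The named genes that fell belong to diverse families. CML41 (AT3G50770), a calmodulin-like protein of the channels between cells, read 7.20, 7.50 and 7.44 at excess zinc, against 8.55, 9.07 and 9.47 at normal zinc. The fall was 3.14-fold, or -1.65 on the log2 scale (SE 0.41), with an adjusted p of 0.0378, and no excess value reached a normal one. AT3G28510, of the AAA-ATPase family, read 6.66, 5.73 and 6.18 at excess zinc, against 7.93, 7.87 and 7.60 at normal zinc, and fell 3.06-fold (adjusted p = 0.0131, log2 difference -1.61). CHI (AT2G43570), here a chitinase, averaged 11.08 ± 0.31 at excess zinc and 12.12 ± 0.16 at normal zinc (SD, n = 3 each), a fall of 1.05 on the log2 scale (adjusted p = 0.0375). AT5G59670, a receptor kinase with leucine-rich repeats, fell by 0.95, and AT5G42830, of the HXXXD acyltransferase family, by 1.05.

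Glycosyltransferases of the UGT family were named on 47 probe sets, of which 3 fell and none rose, where 0.936% of all probe sets fell and 2.27% rose. UGT73D1 read 6.44, 5.75 and 6.12 at excess zinc, against 7.52, 7.29 and 7.10 at normal zinc, and fell 2.29-fold (adjusted p = 0.00649, log2 difference -1.196). UGT76B1, which glucosylates salicylic acid and isoleucic acid, fell 2.14-fold (adjusted p = 0.0491), and UGT72E2, which glucosylates monolignols, fell 1.48-fold (adjusted p = 0.0398). The median over the family was -0.10. Of 20 probe sets of the BGLU beta-glucosidase family BGLU44 rose 1.45-fold and BGLU31 fell at least 1.51-fold, of 11 of the GSTU glutathione transferases GSTU20 rose 1.60-fold, and none of the 26 of the CYP family was called in limma (smallest adjusted p = 0.0693). With single shoot arrays left out, UGT72E2 was called in 10 of 18 fits (-0.68 to -0.46), BGLU31 in 13 (-0.79 to -0.48), and BGLU44 and GSTU20 in 14 each (0.46 to 0.64 and 0.61 to 0.77); excess replicates 1 and 2 and normal replicate 1 were among the arrays whose omission ended each of these 4 calls.

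Further large falls were found outside these families. AT3G43670, a copper amine oxidase, read 6.51, 6.33 and 5.91 at excess zinc, against 7.47, 7.83 and 7.68 at normal zinc, and fell 2.66-fold (adjusted p = 0.00437, log2 difference -1.41). AT3G49160, of the pyruvate kinase family, read 4.57, 4.61 and 4.70 at excess zinc, close to the level of bZIP19 in the mutant, against 5.51, 6.05 and 6.33 at normal zinc, a fall of at least 2.53-fold (adjusted p = 0.00885). EXO (AT4G08950), a cell wall protein that promotes leaf growth downstream of brassinosteroids, averaged 8.95 ± 0.28 at excess zinc and 10.02 ± 0.23 at normal zinc and fell 2.09-fold (adjusted p = 0.0286). AT1G68620, of the alpha/beta hydrolase family, fell by 1.203, AT4G00700, a protein with C2 domains, by 1.15, AT4G38560 by 0.99 and AT2G39210, of a membrane transporter family, by 0.92.

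Of the 15 largest falls, AT3G43670, AT3G49160 and UGT73D1 kept their call with any 1 of the 18 shoot arrays left out. Leaving out excess replicate 2 ended 11 of the 15 calls, excess replicate 1 ended 10, normal replicate 2 ended 8, normal replicate 3 ended 7, excess replicate 3 or normal replicate 1 ended 5 each, and mutant low-zinc replicate 3, of neither group, ended 4. CML41 was called in 12 of these 18 fits (-1.89 to -1.43), AT3G28510 in 17, being lost without excess replicate 2 (-1.38, adjusted p = 0.0693), CHI in 12 (-1.20 to -0.89), EXO in 14 (-1.21 to -0.93), AT5G42830 in 9 (-1.15 to -0.96), AT1G68620 in 15 (-1.47 to -1.01), and UGT76B1 in 5 (-1.25 to -0.92). AT5G59670 lost its call without excess replicate 1 (-0.85, adjusted p = 0.0505). AT4G00700 was called in 13 (-1.27 to -1.08), AT4G38560 in 16 (-1.13 to -0.88), AT2G39210 in 15 (-1.06 to -0.76) and atpH in 13 (-2.22 to -1.40).

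Among probe sets with no gene named here, 251677_at rose by 2.22 (adjusted p = 0.000557) and 254098_at fell by 2.21 (adjusted p = 2.28e-06). The second read 10.05, 10.33 and 10.22 at excess zinc, against 12.26, 12.65 and 12.31 at normal zinc.

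Transcripts encoded in the plastid genome were named on 69 probe sets, and 64 of them lay below 0 in mutant shoots, with a median of -0.43, while 48.4% of all probe sets lay above 0. In mutant shoots at low against normal zinc, a comparison that shares the normal arrays, 55 of the 69 lay below 0 as well, with a median of -0.32. That median was -0.07 without normal replicate 2, -0.19 without low-zinc replicate 2 and -0.56 without normal replicate 1. A single plastid probe set of the 69 was called at excess against normal zinc, where 3.20% of all probe sets were called and 0.936% were called lower. The count is thus no sign of more calls among plastid genes than elsewhere. atpH, the c subunit of the plastid ATP synthase, read 8.55, 8.63 and 8.44 at excess zinc, against 9.14, 10.74 and 10.78 at normal zinc, and fell 3.21-fold (adjusted p = 0.0349, log2 difference -1.68). By class, the median was -0.77 for 8 genes of no class below, -0.69 for 6 cytochrome b6f genes, -0.51 for 4 RNA polymerase genes, -0.42 for 15 ribosomal protein genes, -0.34 for 10 ndh genes, -0.26 for 15 photosystem II genes, -0.18 for 6 ATP synthase genes and -0.15 for 5 photosystem I genes. Normal replicate 1 was the lowest array of its group in 62 of the 69. The median over the 69 was 9.28, 9.32 and 9.95 in excess replicates 1, 2 and 3, against 9.20, 10.45 and 10.21 in normal replicates 1, 2 and 3, so the groups overlapped and normal replicate 1 was the lowest of all 6. Without normal replicate 1 the median difference was -0.69, and without normal replicate 2 it was -0.20. In wild type shoots the same 69 had a median of 0.31 and 11 lay below 0. Without wild type normal replicate 1, whose plastid median of 8.99 was the lowest of its group, the wild type median was 0.11 and 20 lay below 0. None of the 5 nuclear photosynthesis genes with a named probe set was called in the mutant in limma (smallest adjusted p = 0.0968).

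**Figure D2:**
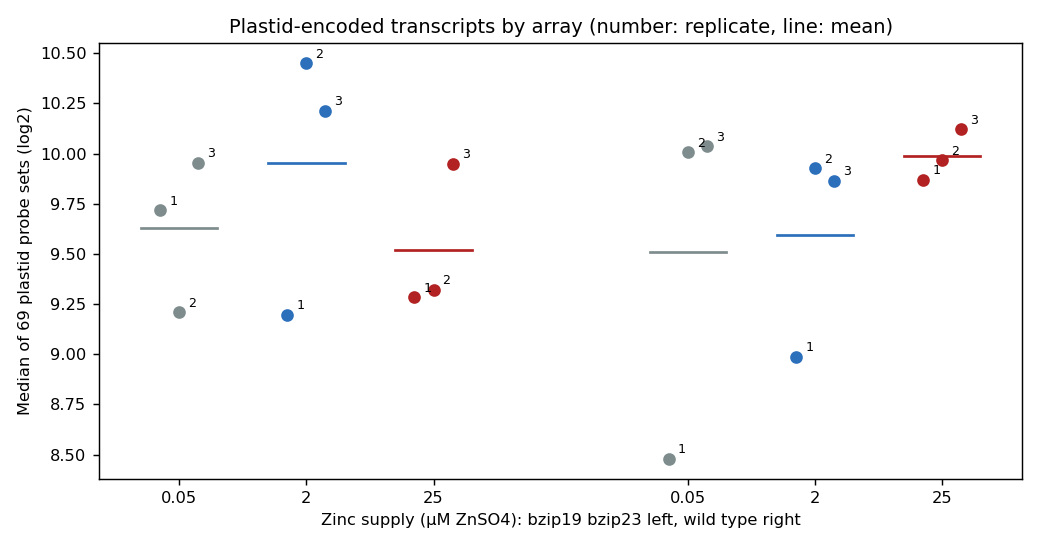
Median log2 value of the 69 plastid-encoded probe sets in each shoot array (points, numbered by replicate) and the mean of each group (lines), for low, normal and excess zinc in the mutant (left) and in wild type (right). In the mutant the excess arrays lie at 9.28 to 9.95 and the normal arrays at 9.20 to 10.45, and in wild type low zinc replicate 1 is the lowest array at 8.48.

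Few genes of zinc handling could be paired by name. ZIP9, the only one of 12 listed bZIP19 and bZIP23 targets that was, read 5.41, 5.67 and 5.67 at excess zinc, against 5.78, 5.47 and 5.64 at normal zinc, a difference of -0.05 (adjusted p = 0.906). The zinc transporter gene ZIP6 differed by 0.17, MTPA1, of a metal transporter family, by 0.00, and the metallothionein gene MT1C by -0.23. CITF1, a bHLH factor of the copper response, differed by 0.05. In each of these genes the values at excess and normal zinc overlapped. Single genes of hypoxia (HRA1, -0.08), of the clock (GI, 0.31) and of senescence (WRKY53, -0.41) and both named heat shock genes (HSA32, 0.11, and HSP22, -0.01) did not pass either. No listed gene of iron storage, phosphate starvation, nitrate assimilation or starch and sugar response could be paired with a probe set by name, so these groups were not analysed here.

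The response of the mutant was set beside that of wild type shoots, measured on the same pair of array dates. In wild type 141 probe sets (0.620%) were called, 56 (0.246%) higher and 85 (0.374%) lower. The calls of the genotypes shared 72 probe sets, 39 higher and 33 lower in both, which is 9.88% of the mutant's calls and 51.1% of those of wild type. Of the 516 risen in the mutant, 443 (85.9%) also lay above 0 in wild type, with a median of 0.18. Of the 213 fallen 17 (8.0%) did, with a median of -0.29, while 49.6% of all probe sets lay above 0 in wild type. These probe sets were chosen by their change in the mutant, which by itself favours smaller values in wild type, so the medians test no difference in response. Zinc supply and array date changed together in both genotypes, so the shared direction cannot tell them apart. The wild type count moved with single arrays and was 35, 67, 60, 40 and 85 without wild type excess replicates 2 or 3 or normal replicates 1, 2 or 3.

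The genotype interaction, which sets the mutant's response against that of wild type, called no probe set (0%) in limma, with 1844 (8.11%) at an unadjusted p under 0.05 and a smallest adjusted p of 0.253. Without wild type excess replicate 3, 2 were called. For the iron genes the difference in response, mutant minus wild type, was -0.32 for IMA1 (SE 0.57), -0.16 for bHLH101 (SE 0.22) and -0.10 for PYE (SE 0.20). IMA1 rose by 2.74 in the mutant and 3.06 in wild type, bHLH101 by 1.14 in the mutant and 1.299 in wild type, and PYE by 0.96 in the mutant and 1.05 in wild type. Other genes with larger differences were not called either. AT1G56300 rose by 2.198 in the mutant and 1.19 in wild type (difference 1.01, unadjusted p = 1.43e-05, adjusted p = 0.253), AT4G16146 rose by 1.105 in the mutant and differed by -0.01 in wild type (difference 1.12, adjusted p = 0.482), and HIS1-3 rose by 1.28 in the mutant and differed by -0.47 in wild type (difference 1.75, adjusted p = 0.551). atpH fell by 1.68 in the mutant and differed by 0.12 in wild type (difference -1.80, adjusted p = 0.551). The 8 ATG probe sets, with a median of 0.40 in the mutant, had a median of -0.01 in wild type, and the 4 cold and dehydration genes had medians of 0.85 in the mutant and -0.09 in wild type. With 1 of the 6 wild type arrays left out, the wild type ATG median ran from -0.06 to 0.04 and the cold and dehydration median from -0.14 to 0.05. Both lay above 0 without wild type excess replicate 1 and without wild type normal replicate 2, and below 0 with any of the other 4 left out.

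**Figure D3:**
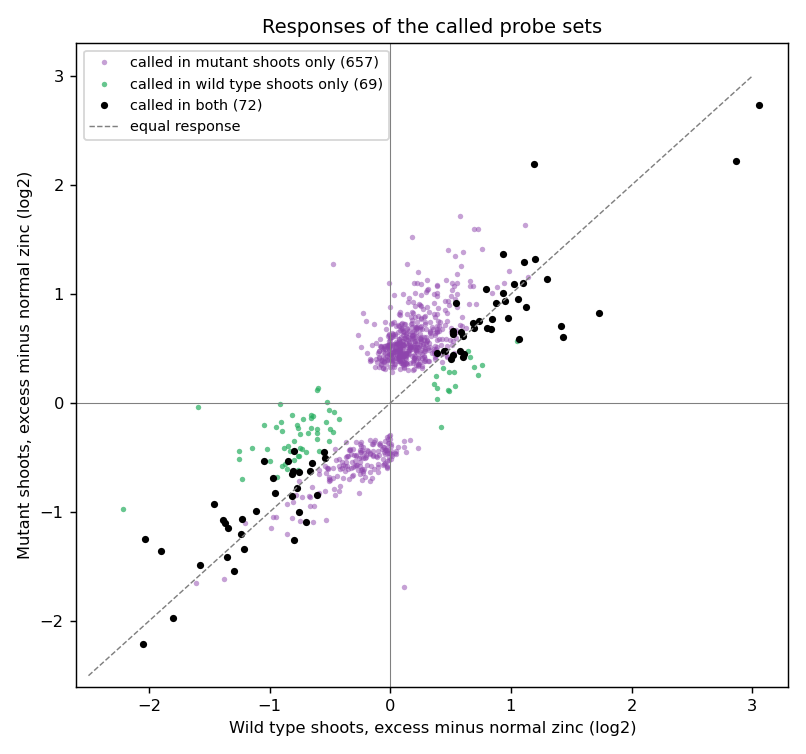
Log2 difference, excess minus normal zinc, in mutant shoots (vertical) against wild type shoots (horizontal), for the 729 probe sets called in the mutant and the 141 called in wild type. The 72 called in both (black) have the same sign in both genotypes. They were picked by their calls in both, which by itself favours large values on both axes. Their position therefore does not test whether the responses are equal. Most of those called in the mutant alone (violet) lie nearer 0 on the wild type axis. The violet points were chosen by their change in the mutant, which by itself favours smaller values in wild type. The position of the violet points therefore tests no difference between the genotypes.

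Mutant and wild type shoots at excess zinc were also compared directly, within 1 array date. Of all probe sets 7 (0.0308%) were called, 3 (0.0132%) higher and 4 (0.0176%) lower in the mutant. bZIP19 averaged 4.66 ± 0.28 in the mutant and 8.70 in wild type (log2 difference -4.05, adjusted p = 2.11e-11). AT5G24240, of the phosphatidylinositol 4-kinase family, averaged 6.09 in the mutant and 9.76 in wild type, and AT1G18485, a pentatricopeptide repeat protein, 5.20 in the mutant and 5.86 in wild type (adjusted p = 8.08e-11 and 0.00695). Higher in the mutant were AT1G56300, with 7.36 in the mutant and 6.38 in wild type, AT1G08940, with 7.29 in the mutant and 6.08 in wild type, and AT5G52390, with 8.54 in the mutant and 7.54 in wild type (adjusted p = 0.00151, 0.000274 and 0.0179). The fourth lower probe set had no gene named. At normal zinc AT1G56300 averaged 5.16 in the mutant and 5.19 in wild type, and 5 probe sets (0.0220%) were called, bZIP19 and AT5G24240 among them. The count at excess zinc was 4 without wild type excess replicate 2 and 11 without wild type low-zinc replicate 1.

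**Figure D4:**
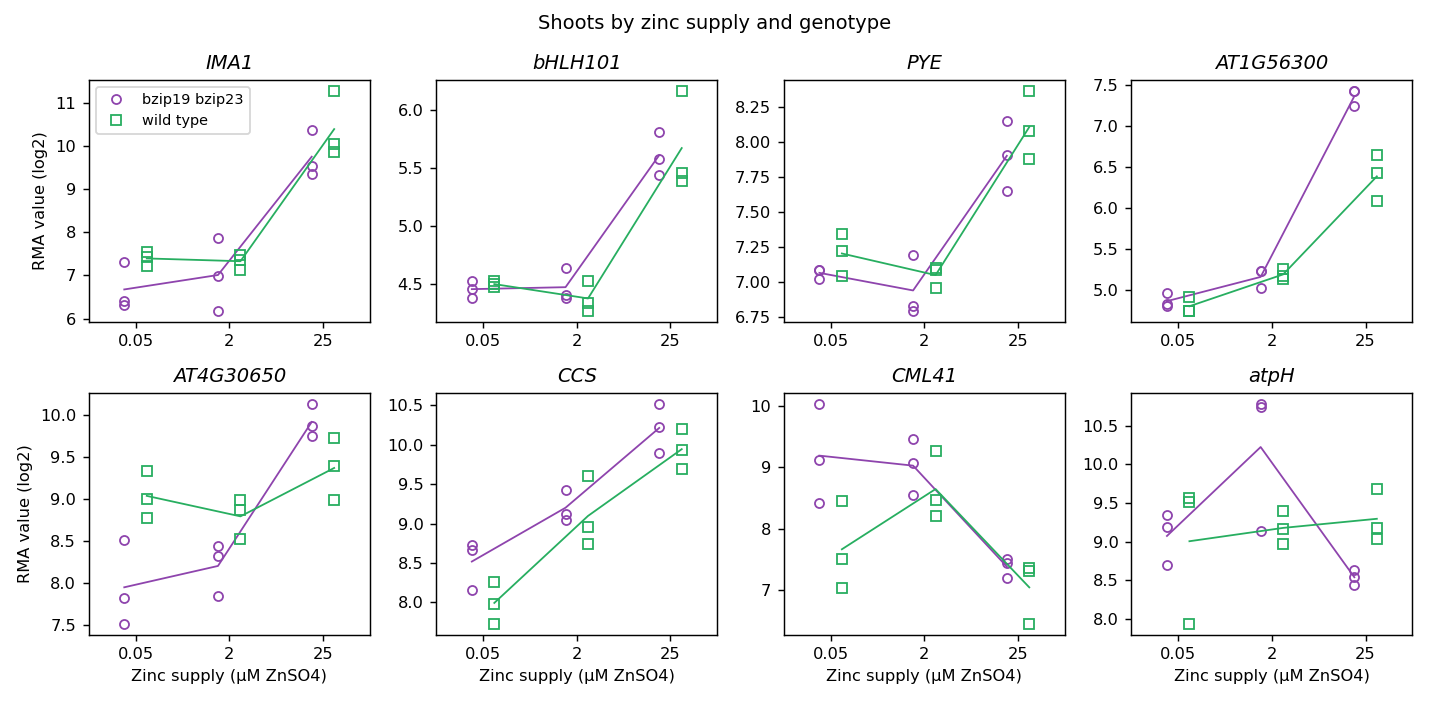
Deposited values (log2) of 8 genes in shoots over the zinc series 0.05, 2 and 25 µM, with 1 symbol per array (circles for the mutant, squares for wild type) and lines through the means. In the mutant the means of IMA1, bHLH101 and PYE lie closer together at 0.05 and 2 µM than at 2 and 25 µM, and atpH in the mutant is highest at 2 µM. The arrays at 0.05 and 2 µM shared an array date and those at 25 µM carried another.

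The 3 zinc supplies were compared in mutant shoots. Low and normal zinc shared an array date and excess zinc had another. Zinc and date therefore cannot be told apart in the step to excess. Between low and normal zinc 15 probe sets (0.0659%) were called, and none of the 30 genes with the largest changes was among them. That count ran from 4 to 89 with single arrays left out, and was 70 without normal replicate 1 and 89 without wild type low-zinc replicate 1. IMA1 averaged 6.67 at low, 7.01 at normal and 9.75 at excess zinc, and bHLH101 4.46, 4.47 and 5.61 in the same order. Other genes had means in a graded order: AT2G39920 averaged 4.96, 6.00 and 7.37, CCS 8.52, 9.20 and 10.21, and AT1G68620 ran the other way with 9.35, 8.35 and 7.14. EXO and atpH were highest at normal zinc, with 9.08, 10.02 and 8.95 for EXO and 9.07, 10.22 and 8.54 for atpH, and HIS1-3 was lowest there, with 8.41, 7.54 and 8.82.

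Against low instead of normal zinc, 2773 probe sets (12.2%) were called at excess zinc, 1617 (7.11%) higher and 1156 (5.08%) lower, a comparison that shares its excess arrays and array dates with the main one. Of the 516 risen 460 (89.1%) and of the 213 fallen 164 (77.0%) were called there in the same direction. Of the 30 genes with the largest changes, HIS1-3, EXO and atpH were not, with 0.41, -0.13 and -0.53 against low zinc (adjusted p = 0.455, 0.794 and 0.443). The count was 1689, 1569 and 1753 without excess replicate 2 or low-zinc replicates 2 or 3, and 3756 without wild type low-zinc replicate 1, against a main count of 2773.

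Roots of the mutant, whose excess and normal samples shared an array date, gave 1153 called probe sets (5.07%). Called in both tissues in the same direction were 51, which is 7.00% of the shoot calls and 4.42% of the root calls. Of the 516 risen in shoots 33 were called in roots in the same direction and 3 in the opposite one. Of the 213 fallen 18 were called in the same and 18 in the opposite direction. Over all 22746 probe sets, 785 were called higher and 368 lower in roots. IMA1 rose by 2.44 in roots, bHLH101 by 1.01 and PYE by 1.17, and the difference between tissues was not called for any of them (shoot minus root 0.30, 0.13 and -0.21, adjusted p = 0.795, 0.788 and 0.704). AT5G05250 rose by 1.16 in shoots and 2.14 in roots (difference -0.99, adjusted p = 0.131).

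**Figure D5:**
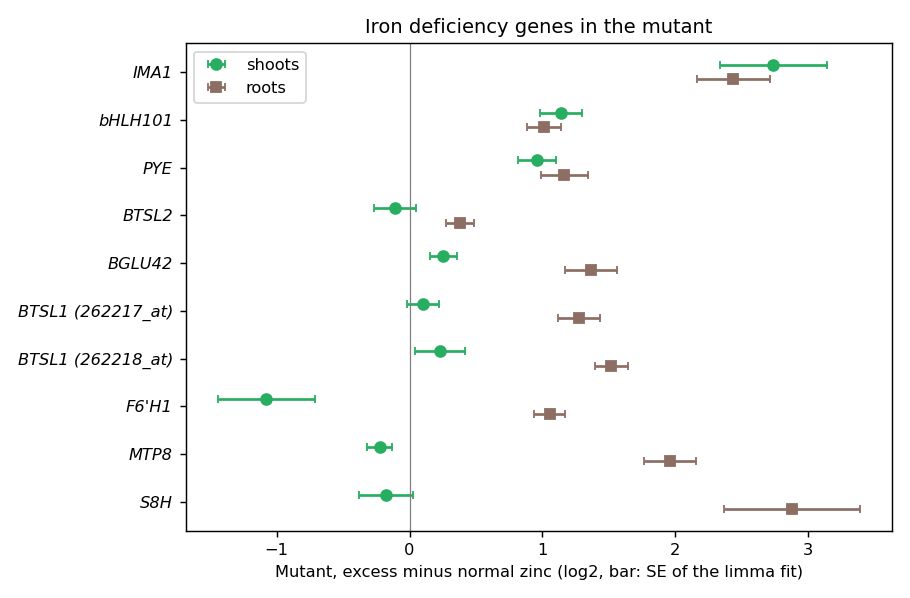
Log2 difference, excess minus normal zinc, of the 10 probe sets of the iron deficiency list in mutant shoots (circles) and mutant roots (squares), with bars for the SE of the limma fit. IMA1, bHLH101 and PYE are high in both tissues, and the other genes lie near or below 0 in shoots and above 0 in roots.

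The coumarin and transport genes of the iron list separated the tissues. S8H differed by -0.18 in shoots and rose by 2.88 in roots, a difference of -3.06 (adjusted p = 0.00433). MTP8 differed by -0.23 in shoots and rose by 1.96 in roots, F6'H1 differed by -1.08 in shoots and rose by 1.06 in roots, and BGLU42 differed by 0.26 in shoots and rose by 1.36 in roots (shoot minus root -2.19, -2.14 and -1.11, adjusted p = 6.02e-07, 0.000385 and 0.00722). BTSL1 was called on both of its probe sets, with -1.29 and -1.17. Over all probe sets this difference was called for 1092 (4.80%), and the count was 591 without shoot excess replicate 2. Of the 516 risen in shoots 229, and of the 213 fallen 89, were among the 1092.

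These probe sets were chosen by their change in shoots, which is 1 arm of the difference between tissues, so the counts describe them and test nothing about them. Of the 15 largest rises in shoots the difference was called for 10. AT1G56300 rose by 2.198 in shoots and 0.47 in roots, and AT4G30650 rose by 1.71 in shoots and differed by -0.12 in roots (difference 1.72, adjusted p = 8.07e-09, and 1.83, adjusted p = 0.00475). Of the 15 largest falls it was called for 10 as well. CML41, CHI, UGT73D1, UGT76B1 and AT1G68620 fell in shoots but rose in roots, by 0.40, 0.92, 0.64, 0.47 and 0.82. AT3G43670 fell in both tissues, by 1.41 in shoots and 1.05 in roots, and AT3G49160 by 1.34 in shoots and 0.51 in roots. In roots excess and normal zinc shared an array date and in shoots they did not, so date and tissue cannot be told apart in these differences. The root count was 600 without root excess replicate 4 and 648 without root normal replicate 4.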

How the data were processed

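RNA from Arabidopsis shoots and roots was measured on Affymetrix ATH1 arrays. The authors deposited 1 log2 value per probe set and array, and named RMA and limma, per the submitters' processing notes, with no versions stated there. The deposited log2 values (3.40 to 14.78, array medians 6.86 to 6.98) were used as given, and the number of arrays limits the precision. Groups came from sample titles and array dates from the labels' file names.

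Of 22810 probe sets, 64 controls were left out and 22746 tested without a filter on low values. A platform table paired 13513 (59.4%) with 1 gene, 503 with several and 8730 with none, and 13436 matched RefSeq TAIR10.1, used for names only. limma 3.58.1 (R 4.3.3; lmFit, contrasts.fit, eBayes) fitted 1 mean per group over the 18 shoot arrays, the 24 root arrays, or all 42 for differences between tissues. Tests were two-sided, adjusted by Benjamini-Hochberg over 22746, and called under 0.05. The script was tested on simulated data. Tables and plots used Python 3.11.15, pandas 2.3.3, numpy 2.4.6 and matplotlib 3.10.9.

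The text names up to 15 rises and 15 falls, largest among called probe sets with 1 gene and no overlap, up to 6 per direction for differences between genotypes or tissues, and of 45 gene lists the called members (up to 8) and up to 3 others. Members and lists were chosen with earlier results of these data known. Replicate numbers were not used to pair the samples. Deviations of same-numbered mutant excess and normal arrays correlated at -0.18 to 0.23. Over all 45 same-numbered pairs of shoot arrays the range was -0.27 to 0.41. With 3 arrays per group these values cannot exclude a pairing. Alternatives were other filters, weights, centring, sets of arrays, references and covariates, and arrays left out.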

Additional observations from a re-analysis of the deposited data

Results flagged for a closer look

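Shoot minus root differences in the response of the mutant to excess zinc were called in limma for the following named genes. Some were picked by the size of this difference, and others by their change in shoots, which is 1 arm of it. Excess and normal arrays carried different dates in shoots and the same date in roots, so date and tissue cannot be told apart here. The shoot response was lower than the root response for AT3G61930 (-3.58), S8H (-3.06), AT3G48450 (-2.90), AT1G26380 (-2.90), AT4G34950 (-2.71), CML38 (-2.54), MTP8 (-2.19), F6'H1 (-2.14), CML41 (-2.05), AT1G68620 (-2.03), CHI (-1.96), UGT73D1 (-1.83), UGT76B1 (-1.57), AT5G42830 (-1.53), AT3G28510 (-1.47), BTSL1 (-1.29 and -1.17 on its 2 probe sets), BGLU42 (-1.11), AT4G38560 (-0.84), AT5G59670 (-0.84) and AT3G49160 (-0.83). It was higher than the root response for AT1G52820 (2.12), AT1G52790 (2.08), AT3G13840 (1.85), AT1G80320 (1.84), AT4G30650 (1.83), AT1G56300 (1.72), AT4G30660 (1.61), AT2G39920 (1.38), AT4G14270 (1.36), AT1G54020 (1.24), AT2G40435 (1.23), AT2G43550 (1.17), AT1G51090 (1.16) and AT4G16146 (1.01). All values are on the log2 scale.

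In mutant roots at excess zinc, 1 of 4 arrays lay far from the others for AT4G34950 (10.42) and for BTSL1 on probe set 262218_at (10.89). In all, 42 sets of 4 values were examined, each of 1 probe set in a root group of 4 arrays, and chance flags about 1 in 20.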

How the results depend on the processing

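With 1 array left out at a time (the 18 shoot arrays unless stated), the number of probe sets called at an adjusted p under 0.05 in limma ran from 124 to 1223 for mutant shoots at excess against normal zinc (729 with all arrays), from 0 to 2 for the genotype interaction (0), from 4 to 11 for mutant against wild type at excess zinc (7), from 591 to 1071 for the shoot minus root response (1092), where only the 14 arrays of the 4 groups compared were left out in turn and not the rest of the 42, and from 600 to 1135 for mutant roots (1153), where only the 8 arrays compared were left out and not the rest of the 24. It ran from 35 to 206 for wild type shoots (141), from 4 to 89 for low against normal zinc (15) and from 1569 to 3756 for excess against low zinc (2773); these 3 sets of fits, and the list medians with an array left out, were chosen after seeing the data. For mutant shoots the count of 729 became 1328 with the actin ratio as a covariate, 1412 with all 42 arrays, 2309 with array weights, 425 with the compared groups alone, 79 with a fold of at least 2, 2773 against low zinc and 2833 against the mean of low and normal zinc. Of the 425 called with the compared groups alone, 324 were among the 729. The genotype interaction called 8 with all 42 arrays and none under the other settings that kept every array. Mutant against wild type at excess zinc gave 12 with the actin ratio, 24 with all 42 arrays, 20 with array weights and 4 with a fold of at least 2. A replicate block was left out of the main fits. With it the counts were 531, 0, 7 and 977 for the mutant shoots, the genotype interaction, mutant against wild type and the tissue difference. Over 43 called named probe sets and 1240 values under the alternatives, 174 calls were lost and no direction turned, and 137 of the 174 were lost with an array left out. Beyond the smaller number of arrays where some are left out, the cause was not tested. Depth does not apply to arrays, and values near the level of bZIP19 in the mutant limit folds to lower bounds.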

Other observations

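Several genes rose in mutant roots and did not pass the test in mutant shoots under the same zinc step. AT3G61930 averaged 5.38 at excess zinc and 5.73 at normal zinc in shoots, and 10.20 at excess zinc and 6.97 at normal zinc in roots. CML38, a calmodulin-like protein, averaged 5.53 at excess zinc and 5.78 at normal zinc in shoots, and 10.25 at excess zinc and 7.95 at normal zinc in roots. ZIP9, a target of bZIP19 and bZIP23, differed by -0.05 in mutant shoots and rose by 1.14 in mutant roots (adjusted p = 3.54e-05), a difference between tissues of -1.19 (adjusted p = 0.0016). UGT72E1 differed by 0.56 in shoots (adjusted p = 0.0544) and rose by 2.49 in roots (adjusted p = 2.8e-09). HRA1, a transcription factor of the hypoxia response, differed by -0.08 in shoots and rose by 1.94 in roots.

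A further set fell in mutant roots and differed little in shoots. AT1G52820 and AT1G52790, of a family of iron-dependent oxygenases, differed by -0.02 and 0.13 in shoots and fell by 2.13 and 1.95 in roots (adjusted p = 2.68e-06 and 1.76e-05). AT1G80320, of the same family, and AT3G13840, of the GRAS family, fell by 1.80 and 2.00 there.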
